A study of Homo sapiens with 13 samples.

Results

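The autosomal collagen genes were described here by the direction in which replication forks crossed them. They were the RefSeq GRCh38 protein-coding genes on chromosomes 1 to 22 whose symbol is COL, a number, A and a number, which gave 42 of 19126 autosomal protein-coding genes, spread over 16 chromosomes. Genes that lie head to head, with divergent starts within 2000 bases, were counted once over their joint span, which left 40 units. Fork direction was measured by TrAEL-seq, which captures free 3' ends of genomic DNA with the strand they lay on, in 13 libraries of PC9 cells, a widely used line of human lung adenocarcinoma that depends on mutant EGFR. The question addressed is how replication differs between growing cells, cells that survive osimertinib, an inhibitor of EGFR, and cells that grow in its presence.

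There were 3 untreated libraries from growing parental cells. Parental cells held in 500 nM osimertinib gave 2 libraries at day 7, 2 at day 14 and 4 at day 28, and the day 28 cultures were not proliferating. A further 2 libraries came from growing resistant lines, named 5 and 10, each raised from 1 single-cell clone and kept in 500 nM osimertinib, so each line is 1 clone with 1 library. Replicates 3 and 4 of day 28 carry a day 28 title and a 7 day treatment label, and they were kept at day 28. No label says that replicates were separate cultures, so p-values cover only the scatter among libraries, and this scatter may be technical. The values are DNA end polarities and not RNA, so neither the cell type nor the expression of any collagen gene can be read from them.

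Collagens are the triple-helical proteins of the extracellular matrix. Fibrillar collagens make the tensile fibres of connective tissue, type IV chains make the sheet of basement membranes on which lung epithelium rests, and fibril-associated collagens lie on the surface of fibres and tie them to other matrix. Most collagen genes are long and made of many small exons, and several lie beside each other, in the same or the opposite direction, as relics of old duplications. Strand polarity is the difference between reads on the 2 strands of a window divided by their sum, in percent, so it runs from -100 to 100. A window that all forks cross in 1 direction lies near an end of that scale, and a window crossed equally in both directions, or without signal from forks, lies near 0. Positive polarity is taken here as rightward forks, a reading that the deposited files do not state.

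Both head-to-head pairs are type IV collagen pairs, and the stretch between the genes is printed because transcription of each pair parts there in both directions. Fork passage through so short a stretch cannot be seen in windows of 20 kb. For COL4A4 the promoter entry used held 0 bases of the stretch, so its start there rests on the RefSeq gene bound. COL4A1 and COL4A2 encode the chains of the most widespread basement membrane network. COL4A3 and COL4A4 encode chains of the specialised network of the lung alveolus and the kidney glomerulus. The sequences are from RefSeq, build GRCh38.p14, plus strand, 5' to 3', with CCAAT and GGGCGG on either strand in capitals. On the other strand these motifs read ATTGG and CCGCCC, and no capitals overlap.
COL4A1/COL4A2, chr13:110307158-110307283, 126 bases: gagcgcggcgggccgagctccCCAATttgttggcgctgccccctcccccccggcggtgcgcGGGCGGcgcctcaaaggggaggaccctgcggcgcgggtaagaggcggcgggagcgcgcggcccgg
COL4A4/COL4A3, chr2:227164489-227164623, 135 bases: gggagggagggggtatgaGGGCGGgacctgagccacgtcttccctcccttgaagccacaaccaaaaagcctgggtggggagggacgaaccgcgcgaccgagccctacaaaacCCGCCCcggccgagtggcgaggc
The stretch of the first pair held 1 CCAAT and 1 GGGCGG, had a GC content of 80.2% and held 20 CG dinucleotides. The stretch of the second pair held 0 CCAAT and 2 GGGCGG, had a GC content of 68.1% and held 11 CG dinucleotides. Among 33725 autosomal entries of the promoter table, 20.9% held CCAAT and 34.7% held GGGCGG in the 126 bases before their start, and 21.9% and 35.6% did in 135 bases. The median GC content of these promoters was 60.3% over 126 bases and 60.0% over 135 bases.

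The pairs stood far apart in the strength of their leftward bias although they share the same layout. Across COL4A4/COL4A3 (chr2:226967360-227314792, 18 windows), mean polarity was -80.4, -79.5 and -66.5 in untreated replicates 1 to 3, and all 18 windows were negative on average. Across COL4A1/COL4A2 (chr13:110148963-110513209, 19 windows), it was -10.9, -21.6 and -16.0, and 4 of 19 windows were positive. Leftward forks thus dominated the whole of the first pair, through both its genes and the start between them, and the second pair had only a weak leftward bias. Taken alone, COL4A4 had an untreated mean of -70.7 ± 6.29 (SD, n = 3) and COL4A3 one of -82.1 ± 9.98 (SD, n = 3). COL4A1 had -30.3 ± 18.7 (SD, n = 3) and COL4A2 had -7.87 ± 14.4 (SD, n = 3), with 1 of 3 replicates of COL4A2 above 0.

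Under osimertinib the strong bias of COL4A4/COL4A3 was reduced in every library. Its polarity was -33.8 and -20.6 at day 7, -21.6 and -43.4 at day 14, -37.4, -20.8, -39.9 and -23.3 at day 28 and -20.6 and -52.1 in lines 5 and 10. No treated or resistant library reached the untreated range. The difference from untreated passed at day 7 (48.2 ± 12.96 SE, adjusted p = 0.0442) and at day 28 (45.1 ± 10.8 SE, adjusted p = 0.0112) in limma with Benjamini-Hochberg adjustment, but the day 28 difference was -13.2 once each library was divided by its amplitude, which turned its sign. COL4A1/COL4A2 had -29.8 and -9.81 at day 7, -13.02 and -33.0 at day 14, -12.5, -2.29, -12.4 and -6.60 at day 28 and -11.7 and -25.1 in lines 5 and 10. Its libraries overlapped with the untreated ones in every comparison, and the day 28 difference of 7.74 ± 8.73 SE, adjusted p = 0.513 did not pass in limma.

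**Figure D1:**
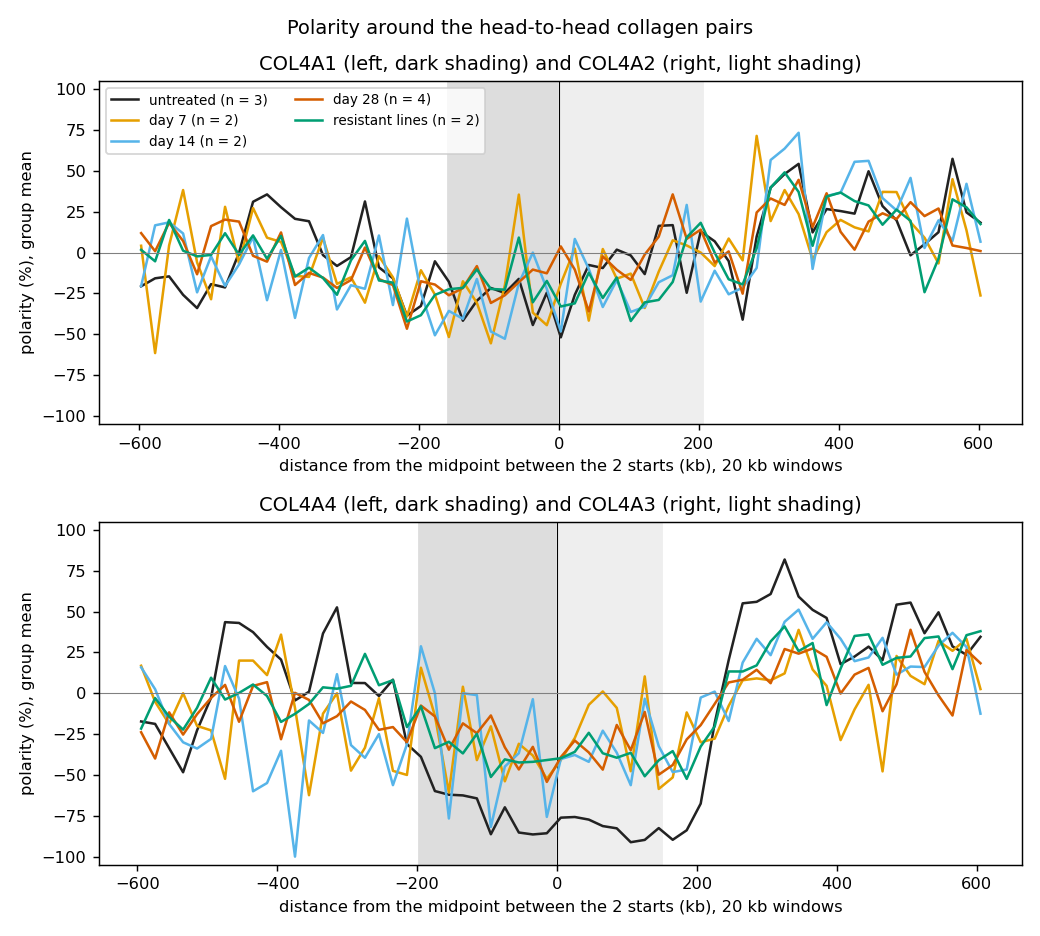
Group mean polarity (%) in 20 kb windows against the distance (kb) from the midpoint between the starts of each head-to-head pair, for untreated (n = 3), day 7 (n = 2), day 14 (n = 2), day 28 (n = 4) and resistant (n = 2) libraries. Dark and light shading mark the left and the right gene. The untreated line lies below 0 through all of COL4A4/COL4A3, where the mean absolute polarity of windows is 75.4 in untreated cells and 29.6 at day 7, 34.5 at day 14, 30.3 at day 28 and 36.3 in resistant lines, with single windows of day 14 as low as -81.8. Across COL4A1/COL4A2 untreated windows run from -51.9 to 16.8, and the same mean is 21.2 in untreated cells and 16.0 to 26.96 in the other groups.

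Polarity was smaller in size across all genes as well. Each library's amplitude was computed as the slope, across genes, of its values on the mean of pairs of untreated libraries other than itself, and over all 15314 tested genes it was 0.851 to 1.05 in untreated libraries. It was 0.363 and 0.547 at day 7, 0.381 and 0.669 at day 14, 0.246 to 0.472 at day 28, 0.299 in line 5 and 0.644 in line 10. Over the 33 tested collagen units the same slope was 0.832 to 1.08 in untreated libraries, 0.396 and 0.642 at day 7, and 0.366 and 0.795 at day 14. It was 0.322 to 0.532 at day 28, 0.342 in line 5 and 0.720 in line 10. The collagen slope lay slightly above that of all genes in each library except untreated replicate 3 and day 14 replicate 1. The untreated libraries had a value in 92.6% to 93.4% of windows, the day 7 libraries in 62.6% and 92.1%, day 14 in 82.6% and 86.2%, day 28 in 86.9% to 93.3% and the lines in 93.0% and 93.1%. The depth of the libraries is unknown, since the sources used here give no read counts.

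**Figure D2:**
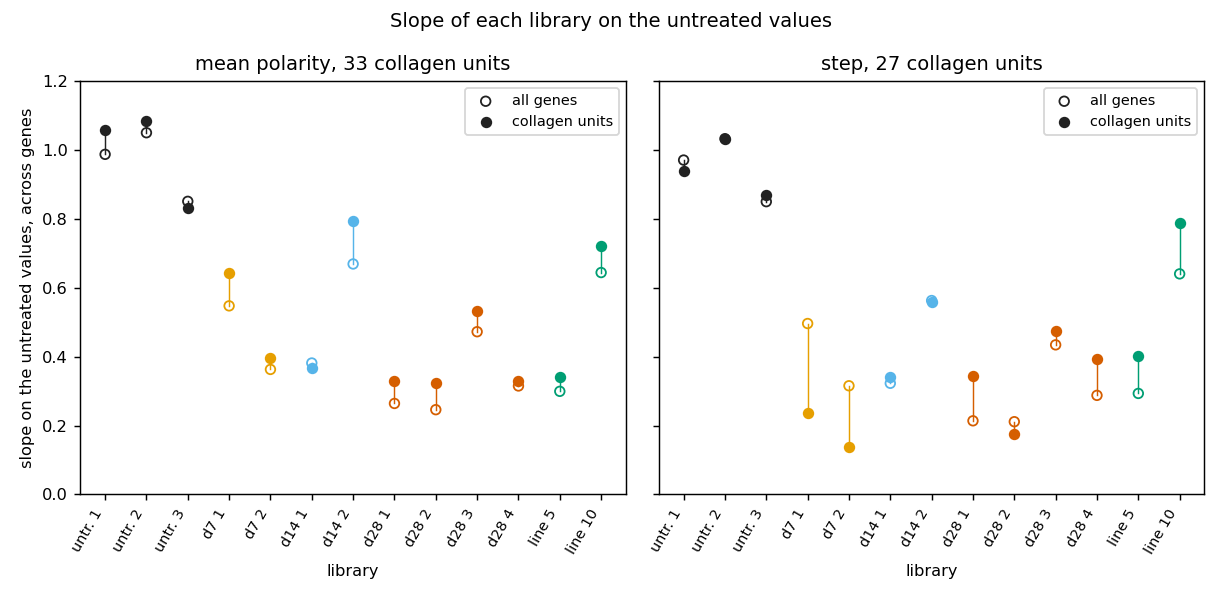
Slope of each of the 13 libraries on the untreated values, across genes (no unit), for mean polarity (left, 33 collagen units) and step (right, 27 collagen units). Filled points are collagen units and open points are all tested genes. Every treated and resistant library lies below every untreated library in both panels. For the step, the collagen slope lies below the slope of all genes in both day 7 libraries and above it in both resistant lines.

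Collagen units covered 359 different windows. Their median length was 124 kb against 24.5 kb for all genes, and they covered a median of 7 windows against 2. The shortest was COL9A2, 16.8 kb, and the longest COL25A1, 494 kb. A unit was tested when every library had a value in at least 50% of its windows, which 33 of 40 units met. The 7 others were COL9A2, COL3A1, COL25A1, COL1A2, COL17A1, COL6A1 and COL6A2. Length had no clear relation to the strength of untreated polarity (Spearman -0.0467 and Pearson -0.0330 over the 40 units, which share libraries; given as a description).

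In untreated cells 23 of 40 units had a mean polarity below 0 (57.5%, against 49.4% of 18881 genes) and 17 had one above 0. The sign was the same in all 3 untreated libraries for 38 of 40. Mean polarity lay beyond 50 on either side in 13 units and within 20 of 0 in 10, and the median absolute value was 39.1 against 33.8 for all genes. Of the 22 tested units with a listed strand, 15 (68.2%) were crossed by forks mostly in the direction of their own transcription, against 6538 of 12259 genes (53.3%). Rises of untreated polarity of at least 40 points over the smoothed profile, read as initiation zones, overlapped 17 of 40 units (42.5%) against 46.3% of all genes. The mirror-image falls, read as termination zones, overlapped 13 (32.5%) against 28.9%. These shares are descriptions of the 40 units, and none was tested. The comparison of fork direction with transcription and the reading of rises and falls as zones rest on the assumed sign of polarity. Both would be reversed under the other sign.

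The most leftward unit was COL9A1, which encodes a chain of a fibril-associated collagen of cartilage, with -83.0 ± 5.99 (SD, n = 3). Next came COL11A2, a fibrillar gene in the major histocompatibility complex region, with -79.2 ± 9.14 (SD, n = 3), and COL4A4/COL4A3. Library values of the 3 overlap. The most rightward was COL18A1, which encodes a basement membrane proteoglycan whose C-terminal fragment is endostatin, with 74.5 ± 12.3 (SD, n = 3). It was followed by COL1A1 with 60.4 ± 18.05 (SD, n = 3) and COL24A1 with 59.1 ± 7.83 (SD, n = 3), and these neighbours overlap in their library values.

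Members that lie next to each other did not always share a fork direction. COL3A1 and COL5A2, 19.2 kb apart on chromosome 2, had untreated means of -49.8 and -55.0. COL6A5 and COL6A6, 31.9 kb apart on chromosome 3, had 6.14 and -52.7, and polarity fell within COL6A5 from windows as high as 43.1 to windows as low as -39.8. COL19A1 and COL9A1, 2.59 kb apart on chromosome 6, share 1 window and had -35.2 and -83.0. On chromosome 21, COL18A1, COL6A1 and COL6A2 had 74.5, -49.1 and 32.4, so the sign turned between each and the next. The sign also turned inside single genes, among them COL25A1, COL23A1, COL22A1 and COL19A1. Other units such as COL26A1, COL28A1 and COL13A1 also had windows of both signs, and no share over all genes was computed. In COL25A1, which encodes a transmembrane collagen found in amyloid plaques, 15 of 26 windows were positive and windows ran from -64.3 to 57.5, behind an untreated mean of 2.37.

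**Figure D3:**
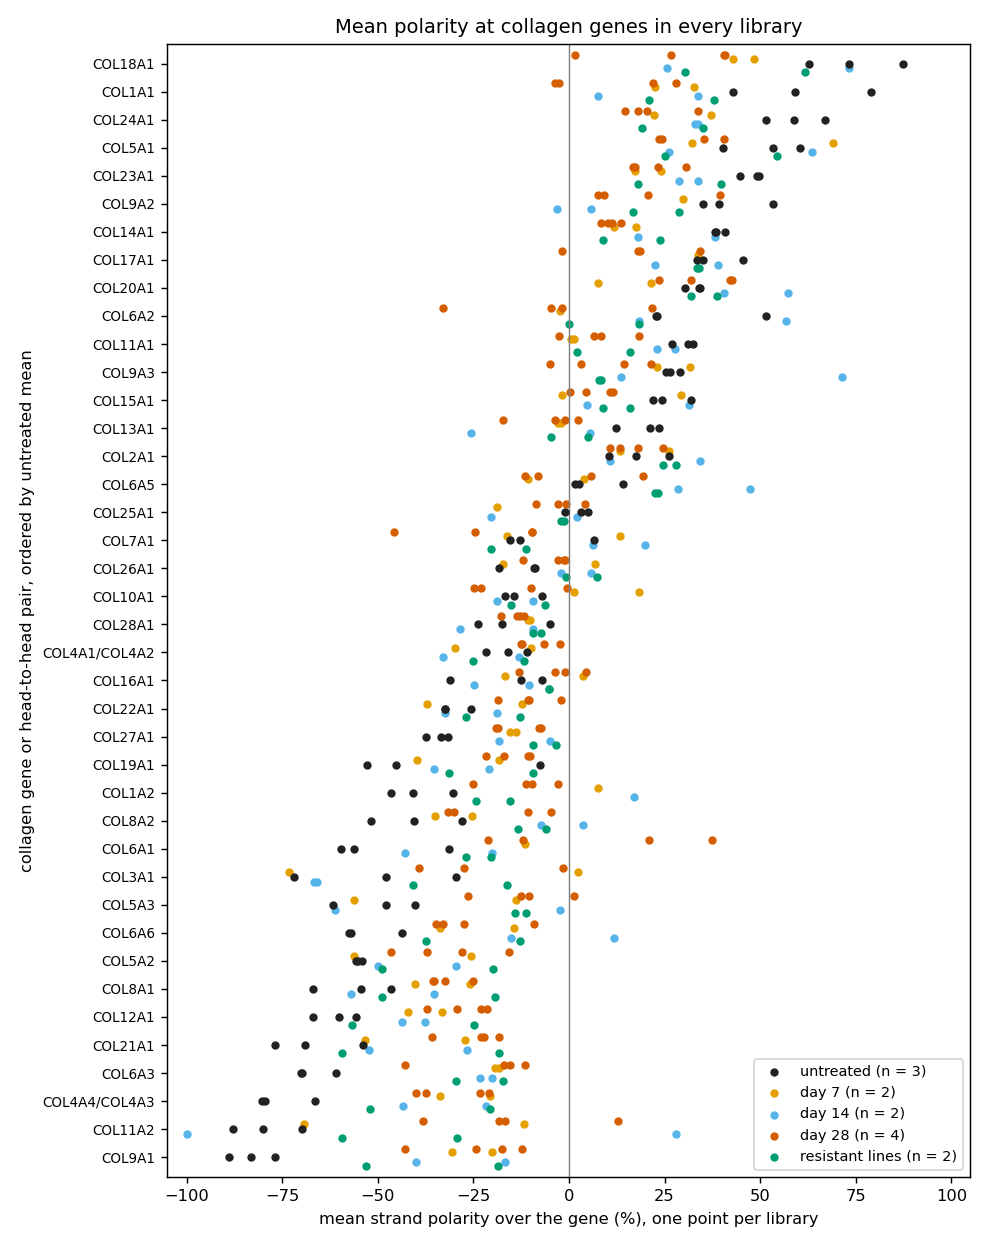
Mean strand polarity (%) of each of the 40 collagen units, 1 point per library, coloured by group and ordered by untreated mean from COL9A1 (-83.0, bottom) to COL18A1 (74.5, top). Untreated points lie farthest from 0 for most units with strong polarity, and the groups mix for units near 0 such as COL26A1 and COL28A1.

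Few collagen units passed the test early in treatment. At day 7, 3 of 33 tested units passed (7.11% of all 15314 genes passed, 7.07% toward 0), namely COL4A4/COL4A3, COL6A3 and COL9A1, and at day 14 2 passed (2.87% of all genes, 2.83% toward 0), COL6A3 and COL9A1. The polarity of all of these was less negative than in untreated cells, and this direction held after division by amplitude, where none passed. These are 9.09% and 6.06% of the collagen units, a difference of few units from the shares of all genes. Library values of the groups did not overlap for 18 of 33 units at day 7 (50.2% of all genes) and for 16 at day 14 (45.9%). The day 7, day 14, day 28 and resistant groups are each compared with the same 3 untreated libraries. No unit passed at day 7 without any 1 of the untreated replicates or without either day 7 replicate. None passed at day 14 without any 1 of the untreated replicates, day 14 replicate 1, day 28 replicate 2, 3 or 4, line 5 or line 10. With day 28 replicates 3 and 4 placed at day 7, 7 passed at day 7, and with the replicate number as a block 0 passed at either time. When 1 library at a time was left out, calls over all genes ran from 0 to 1839 at day 7 and from 0 to 756 at day 14.

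At day 28 mean polarity had moved toward 0 in 11 of 33 units past the test, which is close to the share of all genes (33.9%), and 0 of the 33 passed once libraries were divided by their amplitude, when 7 of the 11 differences turned sign. The 11 were COL24A1, COL11A1 and COL1A1 among fibrillar genes, COL4A4/COL4A3, COL9A1, COL12A1, COL14A1 and COL21A1 among basement membrane and fibril-associated genes, and COL6A3, COL23A1 and COL18A1. Of all 33 units, 30 had shifted toward 0, or past it (90.9%, against 91.2% of all genes). The median shift toward 0 over all tested units was 22.5 points against 24.0. The median absolute group mean went from 39.1 in untreated cells to 15.1 at day 28, against 33.9 to 12.9 for all genes. Library values did not overlap for 21 of 33 units (47.3% of all genes).

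The count at day 28 depended on the libraries used. It was 3 without untreated replicate 1, 2 without untreated replicate 2 and 7 without day 28 replicate 2, and it was 2 with the replicate number as a block. Without both libraries of conflicting label 7 passed. Array weights gave 20 and a fit of the untreated and day 28 libraries alone gave 17. The count over all genes varied as well. When 1 library at a time was left out, it ran from 1239 to 5784, and that of collagen units from 2 to 15. The shares of all genes under the other alternatives are not reported here. Of the 27 differences that passed in either measure at any time, 21 no longer passed without untreated replicate 1, 22 without untreated replicate 2, 12 without untreated replicate 3 and 10 without day 28 replicate 2. None changed direction when 1 library was left out. At day 28, COL6A3 and COL9A1 in mean polarity and COL16A1 and COL4A4/COL4A3 in the step passed under every alternative run except division by amplitude, under which COL6A3 turned sign.

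**Figure D4:**
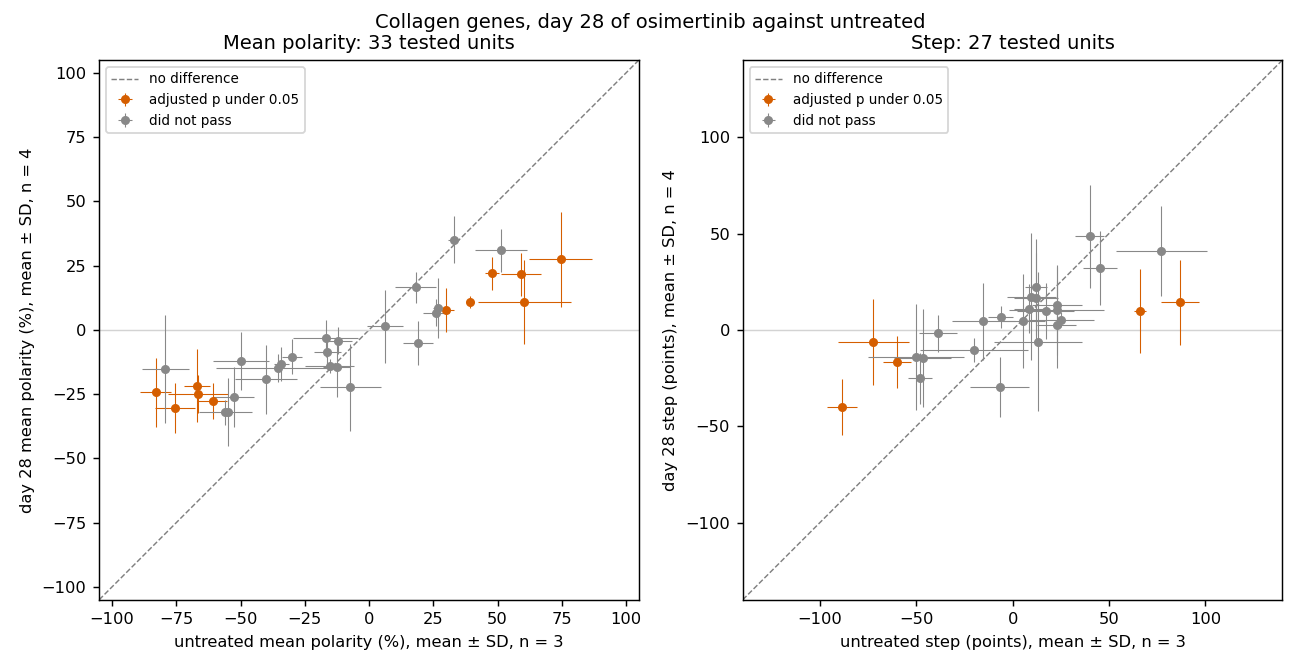
Day 28 (n = 4) against untreated (n = 3) group means with SD bars, for mean polarity (%, left, 33 units) and step (points, right, 27 units). Orange units passed limma with Benjamini-Hochberg adjustment (11 and 5), and the dashed line marks no difference. Day 28 values are shifted toward 0, or past it, in 30 of 33 units on the left and 21 of 27 on the right. None passed after division of each library by its amplitude, when 7 of the 11 and 1 of the 5 differences turned sign.

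Of the fibrillar genes, 9 of 11 were tested and 3 passed at day 28 (33.3%, against 33.9% of all genes). COL1A1 (chr17:50184101-50201631), which encodes the main chain of type I collagen, the chief protein of bone, tendon and scar, had 59.2, 79.1 and 43.0 in untreated cells and -2.63, 21.9, 28.1 and -3.68 at day 28. Its polarity was 32.7 and 22.5 at day 7, 33.7 and 7.71 at day 14 and 20.8 and 37.8 in lines 5 and 10. All 10 treated and resistant values lay below the lowest untreated value, and the day 28 difference was -49.5 ± 12.0 SE, adjusted p = 0.0116 by limma. COL1A1 is 17.5 kb long and covered by 2 windows, and its SD in untreated cells was 18.05.

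COL24A1 (chr1:85729233-86156984, 22 windows) is a minor fibrillar gene of developing bone. It had 67.1, 58.8 and 51.4 in untreated cells, 37.3 and 22.2 at day 7, 32.9 and 33.7 at day 14, 20.4, 18.1, 33.7 and 14.7 at day 28 and 19.0 and 35.0 in lines 5 and 10. All 22 windows were positive on average in untreated cells and 21 at day 28, so the bias grew weaker and kept its side. The day 28 difference was -37.4 ± 9.24 SE, adjusted p = 0.0121 by limma, and 2.48 after division by amplitude. COL11A1, which encodes a chain that nucleates cartilage fibrils, had an untreated mean of 30.1 and a day 28 mean of 7.64 (-22.5 ± 8.15 SE, adjusted p = 0.0480, limma).

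COL1A2 and COL3A1, which encode the partner chain of type I collagen and the collagen of vessels and skin, lacked values in some libraries and were not tested. COL1A2 had -46.5, -30.3 and -40.7 in untreated cells, 7.58 in day 7 replicate 2, 17.1 in day 14 replicate 1, -2.86, -25.1, -11.3 and -9.66 at day 28 and -24.4 and -15.5 in lines 5 and 10. COL3A1 had -29.6, -71.9 and -47.8 in untreated cells, -73.3 and 2.31 at day 7, -66.7 and -65.9 at day 14, -1.67, -39.3 and -27.3 in day 28 replicates 1 to 3 and -16.1 and -40.9 in the lines. Each treated value of COL1A2 lay above the untreated range, whereas those of COL3A1 overlapped with it and 3 of its 4 values at days 7 and 14 were more negative than the untreated mean. COL11A2 had the largest shift of any tested unit at day 28, from -79.2 ± 9.14 (SD, n = 3) to -15.1 ± 21.0 (SD, n = 4), but it did not pass (adjusted p = 0.0543, limma), and 2 windows cover it. Its values at day 14 were 27.9 and -100, the widest gap between replicates of a group in mean polarity among the tested units.

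COL2A1, the collagen of cartilage, had 18.1 ± 7.87 (SD, n = 3) in untreated cells and 16.7 ± 6.02 (SD, n = 4) at day 28, and its groups overlapped at every time. COL5A1, which encodes a chain that sets fibril diameter, had 53.5, 40.3 and 60.4 in untreated cells, 69.2 and 32.3 at day 7, 26.2 and 63.7 at day 14 and 23.6, 24.3, 40.7 and 35.2 at day 28. At days 7 and 14 its libraries lay on both sides of the untreated range, and at day 28 3 of 4 lay below it, with a difference of -20.4 ± 12.8 SE. Neither gene passed at day 28 (adjusted p of 0.918 and 0.227, limma), which does not show that they were unaltered.

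Fibril-associated genes gave 4 of 9 tested units past the test at day 28 (44.4%, against 33.9% of all genes). COL9A1 (chr6:70215061-70303084, 6 windows) had -83.2, -88.9 and -76.9 in untreated cells, -20.1 and -30.5 at day 7, -16.7 and -40.0 at day 14, -12.3, -17.6, -42.9 and -24.3 at day 28 and -18.6 and -53.0 in lines 5 and 10. The untreated range lay apart from all others, and the difference passed at day 7 (57.7 ± 13.6 SE, adjusted p = 0.0344), at day 14 (54.7 ± 13.6 SE, adjusted p = 0.0491) and at day 28 (58.7 ± 11.4 SE, adjusted p = 0.00935) by limma. COL21A1 (chr6:56056590-56394128), which encodes a collagen of vessel walls, had -76.9, -69.1 and -53.9 in untreated cells, -53.3 and -27.2 at day 7, -26.6 and -52.2 at day 14, -22.3, -23.1, -35.7 and -18.4 at day 28 and -18.4 and -59.3 in the lines. Line 10 lay within the untreated range and line 5 far outside it, and the day 28 difference was 41.8 ± 12.2 SE, adjusted p = 0.0213 by limma, or -5.19 after division by amplitude.

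COL12A1 and COL14A1 encode closely related collagens that coat type I fibrils in tendon and skin, and they were crossed in opposite directions. COL12A1 went from -60.8 ± 5.62 (SD, n = 3) to -27.7 ± 7.13 (SD, n = 4) at day 28 (33.2 ± 9.89 SE, adjusted p = 0.0230, limma), and the difference was -20.1 after division by amplitude. COL14A1 went from 39.1 ± 1.43 (SD, n = 3) to 10.8 ± 2.21 (SD, n = 4) (-28.3 ± 8.32 SE, adjusted p = 0.0218, limma). Both thus moved toward 0 from opposite sides. COL20A1, a less studied member of the group, did the reverse at day 14, with 40.7 and 57.3 against 30.5, 34.0 and 34.2 in untreated cells and 42.1, 23.7, 32.0 and 42.6 at day 28, and passed in no comparison.

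Among the type VI genes, whose chains form the beaded filaments around cells, COL6A3 (chr2:237324018-237414164, 5 windows) passed at all 3 times. Its polarity was -69.8, -70.0 and -61.0 in untreated cells, -19.3 and -18.3 at day 7, -23.3 and -20.1 at day 14, -42.9, -17.1, -15.3 and -11.6 at day 28 and -17.3 and -29.6 in lines 5 and 10. Every other library lay outside the untreated range. The differences were 48.1 ± 11.3 SE, adjusted p = 0.0344 at day 7, 45.2 ± 11.3 SE, adjusted p = 0.0494 at day 14 and 45.3 ± 9.44 SE, adjusted p = 0.00935 at day 28 (limma), and the last was -1.12 after division by amplitude. COL6A6, which encodes another type VI chain, had -52.7 ± 7.92 (SD, n = 3) in untreated cells and -26.1 ± 11.7 (SD, n = 4) at day 28 and did not pass (adjusted p = 0.0691, limma).

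COL18A1 (chr21:45405165-45513720, 6 windows), of the multiplexins, had 87.4, 73.3 and 62.9 in untreated cells, 48.3 and 43.0 at day 7, 25.6 and 73.3 at day 14, 1.67, 26.7, 40.6 and 40.9 at day 28 and 30.5 and 61.7 in lines 5 and 10. Day 14 replicate 2 lay within the untreated range, and line 10 lay just under the untreated range. Only 1 of the 6 windows of COL18A1 had a value in every library, so its library means can rest on different windows. The day 28 difference was -47.1 ± 14.1 SE, adjusted p = 0.0233 by limma, and 0.579 after division by amplitude. COL23A1, which encodes a transmembrane collagen, went from 47.9 ± 2.76 (SD, n = 3) to 22.02 ± 6.48 (SD, n = 4) (-25.9 ± 8.72 SE, adjusted p = 0.0364, limma), and the difference was 15.8 after division by amplitude, with the sign turned.

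COL7A1, whose product forms the anchoring fibrils that fix epithelium to the tissue below, moved away from 0 at day 28. It had -15.4, 6.62 and -12.9 in untreated cells and -24.5, -45.7, -9.61 and -9.72 at day 28, groups that overlap, and the difference of -15.2 ± 11.1 SE, adjusted p = 0.304 did not pass in limma. COL10A1, the network collagen of growth plates, and COL28A1, an uncommon collagen of peripheral nerve, began near 0 and had day 28 means of -14.5 and -13.9 against -12.6 and -15.3.

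The step across a gene was the mean of the 3 windows after it minus the mean of the 3 before it, by coordinate, so it is positive where polarity rises to the right. In untreated cells 22 of 40 units had a step above 0 and 18 one below, and 12 lay beyond 50 points. The lowest was COL25A1 with -128, -120 and -67.5 in untreated replicates 1 to 3, which was not tested, and the highest COL16A1 with 98.3, 83.2 and 79.5. COL25A1 had -63.5 in day 7 replicate 2, -50.1 in day 14 replicate 1, 14.1, -49.4, -56.8 and -29.2 at day 28 and 21.5 and -69.4 in lines 5 and 10, so the fall was smaller in each of these libraries than in 2 of 3 untreated ones. In all, 27 of 40 units could be tested in the step.

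Steps also shrank in named units. At day 7, 4 of 27 tested units passed (8.46% of all 12622 genes, 8.41% toward 0), COL16A1, COL24A1, COL4A4/COL4A3 and COL19A1, and at day 14 2 passed (4.68%, and 4.65% toward 0), COL16A1 and COL4A4/COL4A3. At day 28, 5 passed (23.5%), COL16A1, COL8A2, COL24A1, COL4A4/COL4A3 and COL6A6. All were smaller in size than in untreated cells, and under division by amplitude 0 passed at any of these times and the day 28 difference of COL24A1 turned sign. Library values did not overlap for 12 of 27 units at day 7 (45.3% of all genes), 9 at day 14 (43.2%) and 8 at day 28 (38.5%). At day 28 the step had shifted toward 0, or past it, in 21 of 27 units (77.8%, against 89.0% of all genes). The median shift toward 0 over all tested units was 19.3 points against 23.5. COL15A1 is counted here, although its step went from -6.13 to 6.65.

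The slope of collagen steps on the untreated ones was 0.235 and 0.136 in the day 7 libraries, against 0.496 and 0.315 over all genes. At day 14 it was 0.341 and 0.560 against 0.323 and 0.563, and at day 28 it ran from 0.177 to 0.475 against 0.211 to 0.434. In lines 5 and 10 it was 0.401 and 0.788 against 0.293 and 0.640, and in day 28 replicate 1 it was 0.344 against 0.214. Gaps between collagen units and all genes thus ran in either direction. The gap at day 7 rests on 27 units in 2 libraries, and none of these gaps was tested. The count at day 7 was 0 without untreated replicate 1, 1 without untreated replicate 2 and 1 without day 7 replicate 1, and it was 7 with 5 windows on each side in place of 3. The count at day 14 was 0 without untreated replicate 1 or 2 and 1 without day 14 replicate 2. At day 28 it was 3 without untreated replicate 1, untreated replicate 3 or day 28 replicate 1, and 2 without untreated replicate 2 or day 28 replicate 2. With the replicate number as a block 1, 0 and 3 units passed at days 7, 14 and 28. When 1 library at a time was left out, calls over all genes ran from 152 to 1469, 44 to 995 and 1048 to 3440 at these times.

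COL16A1 (chr1:31652263-31704017), a fibril-associated gene, sits on a sharp rise. Its step was 98.3, 83.2 and 79.5 in untreated cells, 31.1 and -5.51 at day 7, 10.1 and 9.23 at day 14, 13.8, 30.8, 29.4 and -17.0 at day 28 and 28.5 and 37.7 in lines 5 and 10. The rise was lower in every other library, and the difference was -74.2 ± 18.4 SE, adjusted p = 0.0164 at day 7, -77.3 ± 18.4 SE, adjusted p = 0.0180 at day 14 and -72.8 ± 15.4 SE, adjusted p = 0.00272 at day 28 (limma). Its mean polarity did not pass at any time, and its 4 windows ran from -36.7 to 28.5 in untreated cells, on both sides of 0. COL8A2 (chr1:36095239-36125222), which encodes a collagen of the corneal endothelium's membrane, had a step of 62.4, 66.9 and 68.5 in untreated cells, 69.6 and 48.3 at day 7, 37.8 and 69.3 at day 14, -0.0950, -11.4, 39.4 and 12.1 at day 28 and 34.6 and 32.7 in lines 5 and 10. Its rise was about as large as in untreated cells in 1 library each of days 7 and 14 and lower in all 4 of day 28 (-55.9 ± 15.7 SE, adjusted p = 0.0125, limma).

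Across COL4A4/COL4A3 untreated polarity was lower after the pair than before it, by -87.6, -77.5 and -51.6. The step was 24.2 and -2.26 at day 7, -5.83 and 15.8 at day 14, 16.7, 8.39, -19.5 and -30.4 at day 28 and -27.7 and -47.4 in lines 5 and 10. It had either sign at each time of treatment and stayed negative in both lines. The differences were 83.2 ± 17.99 SE, adjusted p = 0.00885 at day 7, 77.2 ± 17.99 SE, adjusted p = 0.0162 at day 14 and 66.0 ± 15.1 SE, adjusted p = 0.00388 at day 28 (limma). COL24A1 had steps of -80.4, -96.1 and -88.9 in untreated cells, -8.97 and -21.2 at day 7, -42.6 and -48.8 at day 14, -22.7, -33.6, -49.4 and -54.4 at day 28 and -52.5 and -73.1 in the lines. It passed at day 7 (73.4 ± 18.9 SE, adjusted p = 0.0188) and at day 28 (48.4 ± 15.8 SE, adjusted p = 0.0279, or -25.9 after division by amplitude), by limma.

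COL19A1 (chr6:69866556-70212468), a rare collagen of basement membrane zones, had steps of -29.8, -52.2 and -58.0 in untreated cells, 30.6 and 10.5 at day 7, 3.93 and -25.5 at day 14, 18.3, -8.12, -37.9 and -30.3 at day 28 and -19.4 and -34.4 in lines 5 and 10. The sign was positive in both day 7 libraries, and only that time passed (67.2 ± 17.9 SE, adjusted p = 0.0219, limma). The difference between day 7 and later times was not tested. The 3 windows after COL19A1 lie inside COL9A1, so its step and the mean polarity of COL9A1 partly rest on the same windows and are not independent. COL6A6 (chr3:130516720-130677042) had steps of -60.4, -66.7 and -52.3 in untreated cells, 17.5 and -35.2 at day 7, -60.9 and -69.4 at day 14, -19.9, 3.22, -22.6 and -27.6 at day 28 and -33.4 and -75.7 in the lines. It was about as large as in untreated cells at day 14 and in line 10, and it was smaller in all 4 day 28 libraries (43.1 ± 15.9 SE, adjusted p = 0.0491, limma).

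**Figure D5:**
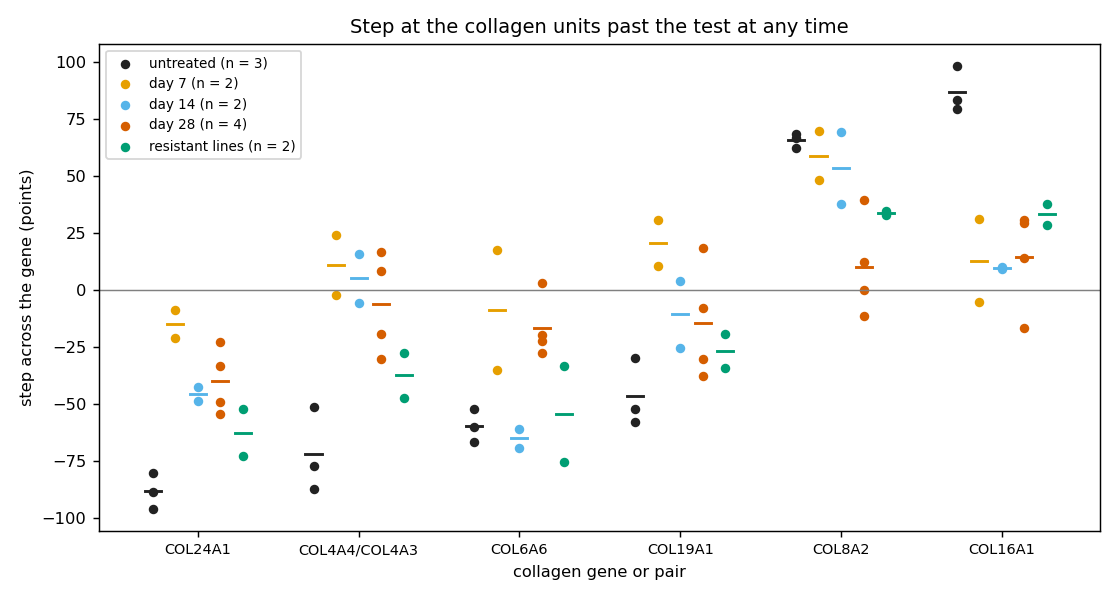
Step (points) in every library, 1 point each with the group mean as a bar, for the 6 collagen units that passed limma with Benjamini-Hochberg adjustment at any time. COL16A1 and COL8A2 rise across the gene in untreated cells and the other 4 fall. Treated values lie closer to 0 for most, except COL6A6 at day 14 and in line 10 and COL8A2 in 1 library each of days 7 and 14. Under division by amplitude the day 28 difference of COL24A1 turned sign.

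In the resistant lines no collagen unit passed against untreated cells, and no gene of the whole table did (0% in either measure). In limma 10 of 33 units had an unadjusted p under 0.05 in mean polarity (30.3%, against 23.9% of all genes). In the step 1 of 27 did, COL16A1 (3.70%, against 14.9% of all genes). Array weights gave 5 units in mean polarity and 1 in the step, and a fit of these groups alone gave 1 in each. The shares of all genes under these fits are not reported here, so these counts cannot be set against them. Library values did not overlap for 21 of 33 units in mean polarity (55.2% of all genes) and 8 of 27 in the step (44.8%). Of the 33 units, 28 were shifted from untreated cells toward 0, or past it (84.8%, against 89.5% of all genes). The lowest p was that of COL6A3, whose mean of -23.5 ± 8.66 (SD, n = 2) differed from untreated by 43.5 ± 11.3 SE, adjusted p = 0.152 (limma). The lines were unlike each other: line 10 lay farther from 0 than line 5 in COL4A4/COL4A3, COL9A1, COL12A1, COL21A1, COL24A1 and COL18A1.

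Against day 28 cells, no collagen unit passed in either measure (0% of all genes). In limma 0 of 33 units had an unadjusted p under 0.05 in mean polarity (1.66% of all genes). In the step 1 of 27 did, COL6A6 (2.35% of all genes). Array weights and the fit of these groups alone also gave 0. Polarity in the lines was shifted from day 28 toward 0, or past it, for 9 of 33 units (27.3%, against 43.4% of all genes). The median absolute mean of the units was 22.8 in the lines against 15.1 at day 28. Library values of the groups did not overlap for 4 of 33 units in mean polarity (9.25% of all genes) and 1 of 27 in the step (11% of all genes).

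Genes that make, process, bind or degrade collagen were read as other lists of the pathway, chosen with earlier results of these data known. Among chaperones and modifying enzymes, 4 of 15 tested genes passed in mean polarity at day 28, COLGALT2, PLOD2, P3H2 and SERPINH1 (26.7%, against 33.9% of all genes). SERPINH1, the collagen chaperone HSP47, went from 58.7 ± 7.90 (SD, n = 3) to 14.3 ± 20.0 (SD, n = 4), a difference of -44.5 ± 11.8 SE, adjusted p = 0.0153 by limma. Among processing and cross-linking enzymes 2 of 9 passed (22.2%), ADAMTS2, the procollagen N-propeptidase, and LOXL1, a lysyl oxidase. Among degrading enzymes 2 of 7 passed (28.6%), also below the share of all genes, MMP8, the neutrophil collagenase, and MMP9, a gelatinase.

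Among collagen receptors 8 of 10 passed at day 28, namely DDR1, DDR2, ITGA1, ITGA2, ITGA11, ITGB1, GP6 and OSCAR, against 33.9% of all genes. This list began with stronger untreated polarity, a median absolute mean of 59.8 against 33.9 for all genes. ITGB1, the shared beta subunit of collagen-binding integrins, went from -84.0 ± 5.93 (SD, n = 3) to -19.4 ± 15.8 (SD, n = 4), a difference of 64.6 ± 12.7 SE, adjusted p = 0.00935 by limma. ITGA1 and ITGA2, subunits of collagen-binding integrins, are neighbours on chromosome 5 and are not independent. The distances among the other receptors are not reported here, so these too may not be independent. At day 7 2 of 10 receptors passed, ITGB1 and GP6, and at day 14 3 did, ITGA2, ITGB1 and GP6, while no gene of the 3 other lists passed at either time (7.11% and 2.87% of all genes). The fit after division by amplitude covered all tested genes, but its results for these lists are not reported here.

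In the step at day 28, 2 of 13 chaperones and modifying enzymes passed (MIA3 and CRTAP), 2 of 6 processing enzymes (ADAMTS2 and LOXL1), 2 of 9 receptors (ITGA1 and ITGA2) and 2 of 6 degrading enzymes (CTSK and MMP2), against 23.5% of all genes. MMP2, a gelatinase that also cuts type IV collagen, had an untreated step of 109 ± 17.1 (SD, n = 3), and 21.9 ± 9.99 (SD, n = 4) at day 28, a difference of -86.7 ± 16.8 SE, adjusted p = 0.00208 by limma. CRTAP, part of the prolyl 3-hydroxylation complex, went from 77.5 ± 27.2 (SD, n = 3) to -10.1 ± 38.6 (SD, n = 4), a difference of -87.6 ± 17.7 SE, adjusted p = 0.00237. At day 7 the step passed for MIA3, LOXL1 and MMP2, and at day 14 for ITGA1, ITGA2 and MMP2.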

How the data were processed

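The authors deposited 1 table of strand polarity in percent, from -100 to 100, for windows of 20 kb every 10 kb in 13 TrAEL-seq libraries. Per the submitters' processing notes, Trim Galore 0.6.5 and Bowtie2 2.4.1 were used, and GRCh38 and GRCm38 are listed as builds. The sources used here do not give the sign of each strand, the read counts or the minimum reads per window. Polarity is a ratio within a library, so library size was not scaled.

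Of 308844 windows, 143736 were used, namely the full autosomal windows that do not overlap. Gene bounds, strands and promoter sequences are from RefSeq GRCh38.p14. Strand came with the promoter table, which matched 30 of 42 collagen genes. A gene's mean polarity needed values in at least 50% of its windows in every library, and its step needed at least 2 of 3 windows on each side. Missing values were not imputed. Both were tested with limma 3.58.1 (R 4.3.3; lmFit and eBayes with a trend) in 1 fit of 13 libraries in 5 groups, adjusted by Benjamini-Hochberg over all tested genes at 0.05. Amplitude division divides a library by its slope on the untreated profile over windows with a value in every library. Initiation and termination zones came from the untreated mean smoothed over 4 windows (80 kb), with changes of at least 40 points across 0.

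On simulated day 28 against untreated data over 15314 genes, mean polarity recovered 3 of 100 units changed by 30 points and 55 of 100 changed by 60, with 2 false calls among 15114. Over 12622 genes the step recovered 1 and 32 of 100, with 0 false calls among 12422. Far fewer genes were changed in the simulation than passed in the data (33.9% in mean polarity and 23.5% in the step). The Benjamini-Hochberg cutoff was therefore stricter in the simulation, and these recoveries do not measure the power of the real comparison.

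Named were the pairs, COL1A1, COL1A2 and COL3A1, the members past the test (at most 6 per comparison with the largest difference in full), and the extremes of polarity, step and length; others appear as ranges or counts, and those with unusual values (such as COL7A1, COL11A2 and COL20A1) were picked after their values were seen. The members and lists were chosen with earlier results of these data known.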

Additional observations from a re-analysis of the deposited data

Results flagged for a closer look

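Among 76 day 28 sets of 4 library values, 2 held a library that stood apart from the other 3, where chance alone flags about 1 in 20. COL26A1 had a mean polarity of -12.1 in day 28 replicate 3, against -1.15, -1.19 and -2.78 in the others. COL11A2 had a step of -17.7 in day 28 replicate 3, against 29.0, 31.8 and 23.4 in the others. Replicate 3 is 1 of the 2 libraries with conflicting labels.

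The mean polarity of COL20A1 was above all untreated libraries in both day 14 libraries and below all of them in both day 7 libraries, and the group means differed by 34.4 points. The step of COL10A1 was above all untreated libraries in both day 7 libraries and below all of them at day 14 and in the resistant lines, with group means 54.9 and 49.9 points apart. Neither difference was tested.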

How the results depend on the processing

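Limits: the depth of each library is unknown, so the spread between 2 to 4 libraries is the only error measured. The simulation found few changes of 30 points, but under a stricter cutoff than in the data, so it does not give the power here. A unit that did not pass may still differ. In mean polarity, day 7 calls went from 3 to 0 with array weights, amplitude division or the replicate block and to 7 with the conflicting libraries at day 7. Day 14 calls went from 2 to 0 with complete windows alone, array weights, amplitude division, a fit of 2 groups, the block, without both conflicting libraries, or with 1 value per group required (an alternative chosen after seeing the data). Day 28 calls went from 11 to 20 with array weights, 17 with 2 groups, 7 without both conflicting libraries, 2 with the block and 0 with amplitude division (3 of 33 at an unadjusted p under 0.05, limma). Resistant against untreated went from 0 to 5 with array weights and 1 with 2 groups. With complete windows alone, 11 of the differences that passed at days 7, 14 and 28 still passed and 5 did not.

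In the step, day 7 calls went from 4 to 2 with array weights, 1 with the block, 0 with amplitude division and 7 with 5 flanking windows. Day 14 calls went from 2 to 0 with amplitude division or the block. Day 28 calls went from 5 to 8 with array weights, 3 with the block, 0 with amplitude division (2 of 27 at an unadjusted p under 0.05, limma) and 10 of 40 with 1 value per group. Resistant against untreated went from 0 to 1 with array weights or 2 groups. The cause of these moves was not tested. The shares of all genes under these alternatives, in either measure, are not reported here.

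With amplitude division the day 28 difference turned sign in mean polarity for COL12A1 (-20.1), COL18A1 (0.579), COL21A1 (-5.19), COL23A1 (15.8), COL24A1 (2.48), COL4A4/COL4A3 (-13.2) and COL6A3 (-1.12), and in the step for COL24A1 (-25.9). No other difference that passed turned sign, and the other 19 no longer passed. Leaving out 1 library at a time gave 0 to 3 calls at day 7, 0 to 3 at day 14, 2 to 15 at day 28 and 0 in both resistant comparisons for mean polarity, and 0 to 6, 0 to 2, 2 to 6 and 0 in both for the step. Over all genes the same runs gave 0 to 1839, 0 to 756 and 1239 to 5784 calls at days 7, 14 and 28 in mean polarity. In the step they gave 152 to 1469, 44 to 995 and 1048 to 3440.

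The replicate block gave 0, 0 and 2 calls in mean polarity and 1, 0 and 3 in the step at days 7, 14 and 28. Deviations of libraries of the same number correlated at -0.115 to 0.102 over 13 pairs, and the numbers were not read as pairing. In groups of 2 libraries the deviations are mirror images of each other. The 13 pairs are therefore not independent, and they cannot exclude pairing. The block could not be fitted for the resistant lines, which carry no replicate number.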
